A study of Homo sapiens with 12 samples.

Results

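The comparison was of 4 libraries of PLC/PRF/5 cells carrying an HKDC1 knockout (KO) with 4 control libraries of the same line, out of 12 libraries in the series. Groups were taken from the sample titles, which name the controls 1 to 4 and the knockouts by line and number (KO 1_1 and 1_2, KO 2_1 and 2_2), and the stranded gene counts were used. PLC/PRF/5 is an established human hepatoma line of epithelial cells, the genotype field calls the controls WT, and no treatment is named for any of the 8 libraries. In 2 of the 8, KO 1_2 and KO 2_2, the genotype field names another group than the title. The labels do not give the edit, whether a line is a single clone or a guide, whether libraries came from separate cultures, or the oxygen level, so the p-values reflect no more than the spread among these samples and part of it may be technical. The other 4 libraries, knockout cells with HKDC1 restored, entered the filter on low counts, the scaling and the estimate of the spread. They were in none of the comparisons.

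HKDC1 encodes a protein of the hexokinase family, the enzymes that phosphorylate glucose on its entry into the cell and so feed glycolysis, glycogen, and the sugar nucleotides used to build glycans. Glucokinase is the main hexokinase of healthy hepatocytes, and hepatoma cells often express other members of the family. The series title sets the gene beside stemness, hypoxia and beta-catenin, an adhesion protein that is also a transcriptional coactivator of the Wnt pathway. The question put to the data here was which genes differed between knockout and control in both knockout lines and against both pairs of controls.

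Total gene counts lay between 57333288 and 71853616 in the controls and between 42609910 and 68040103 in the knockouts, and 3 counts, read as the floor, were worth 0.0418 to 0.0704 CPM, the scaled share of a library's counts that a gene takes. The 8 libraries fell into 4 pairs: controls 1 and 2, controls 3 and 4, KO1 and KO2. The biological coefficient of variation was 5.76% to 18.5% within a pair, 37.5% between controls 1 and 3 and 41.7% between KO 1_1 and KO 2_1. All 12 hepatoma and hepatocyte markers and all 4 epithelial markers were above the floor in every library. The hepatocyte markers summed to 11100 to 28500 CPM in control and 3380 to 27500 CPM in KO. Of the markers of other cells, fibroblast genes summed to at most 11.8 CPM and endothelial genes to at most 2.02 CPM. Neuronal genes summed to 56.6 to 66.4 CPM in control and 62.2 to 69.3 in KO, and blood cell genes, almost all of it LYZ, to 334 to 922 and 367 to 741 CPM. Of the 11 of these markers of other cells that were tested, none was called by edgeR or DESeq2 and 2 had an unadjusted p under 0.05, 1 in each direction. Their part in the results was not tested. In bulk samples fewer cells of a type and less RNA per cell cannot be told apart.

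HKDC1 itself was at 157, 154, 183 and 124 CPM in controls 1 to 4, at 153 and 147 CPM in KO1 and at 91.2 and 49.3 CPM in KO2. Only the KO2 libraries lay below every control. The log2 fold change over both lines was -0.49 (SE 0.39, adjusted p = 0.51, edgeR quasi-likelihood test). It was -1.15 and -1.13 for KO2 against the control pairs (adjusted p = 0.0134 and 0.0206) and -0.05 and -0.04 for KO1, so the mRNA level does not check the label of KO1.

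Of 19200 genes tested, 1206 (6.28%) differed between KO and control at an adjusted p under 0.05, 551 higher (2.87%) and 655 lower (3.41%). A gene was said to hold where it was also called, with the same sign, in each of 4 comparisons of a knockout line with a control pair: KO1 and KO2, each against controls 1 and 2 and against controls 3 and 4. These 4 share libraries, so they are a requirement on each gene and not 4 separate tests. Comparisons of pairs, also those between lines or control pairs, take their spread from within pairs. The biological coefficient of variation was 18% in that fit, against 36.2% in the fit of all KO and all control libraries. Their p-values thus leave out the spread between pairs. The latter fit counts the 2 alike libraries of a pair as separate, so its p-values may be too small. By this rule 530 genes held (2.76%), 232 higher (1.21%) and 298 lower (1.55%) in KO. In all 530 the 4 knockout libraries lay on one side of the 4 controls, which the rule itself makes likely. A further 156 higher and 192 lower genes passed in 3 of the 4 comparisons, and 14 and 5 passed in none. No called gene passed with the opposite sign in any of them. The comparison most often missed was KO2 against controls 3 and 4, with 207 higher and 223 lower genes. KO1 against controls 1 and 2 was missed by 73 and 62. The count of 1206 was 525 and 509 on leaving out control 1 or 2, 591 and 562 on leaving out KO 1_1 or 1_2, and 651 on leaving out KO 2_1. The count of 530, where each pair has only 2 libraries, was lowered by leaving out any of the 8, to between 202 (without control 4) and 327 (without KO 2_2).

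The rises that held were larger than the falls, with median log2 fold changes of 1.63 and -1.02. At least a doubling in each of the 4 comparisons was fitted for 125 of the 232 rises, and at least a halving for 117 of the 298 falls. At least an 8-fold change in each was fitted for 17 and 20. The difference between KO2 and KO1 was itself called for 45 of the rises and 67 of the falls, 21.1% of the 530, close to the 19.9% of all 20559 genes of that fit. The difference between the control pairs was called for 56 and 58, 21.5% against 12.1% of all genes. Whichever of the 8 libraries was left out, 370 of the 530 genes kept their call over all remaining libraries, compared with 405 of the 1206. Of the 71 called genes given with values here, 70 kept their call whichever library was left out, against 75 of the 110 called genes named by the rule. The 71 are thus more stable than the named genes at large. Among the largest rises and falls, only genes that passed this same check were given values. The 70 of 71 is therefore partly built in by the choice of genes and is no separate sign of stability. Of the 71, 67 kept their call with controls 1 and 2 only and 39 with controls 3 and 4 only, 59 with line KO1 only and 36 with line KO2 only.

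Among the 20 largest rises and 20 largest falls that held, 23 genes were already known from earlier results of these data. Holding was a condition for entering this list and not a result of it. They were the rises of PAGE5, ARMCX1, PASD1, DIO3, DPYD, CTTNBP2, CFTR, MGAM, IL17D, ZNF860, ZBTB16 and RPS6KA2, and the falls of DSC3, DSC2, CD36, SLC22A8, ABCA8, CACNA2D1, VCAM1, GC, TFPI2, TTR and LIMCH1. The 20 largest that held in each direction, apart from genes known from earlier results, are plotted by comparison. Those described with values were taken from the 10 rises and 15 falls that kept their call whichever library was left out. Of these 25, the rises of C5orf58, NRN1, KIAA0040, CDC20B and HYDIN and the fall of TOR4A are shown only in the plot. The other 15 were the rises of B3GAT1, CYP26B1, CCND2, DMKN, OSBPL10, STC2, BEX5, SLC6A9, GLP2R and NOX1 and the falls of SPINK4, ANGPTL1, RAPGEF4, UGT2B7 and ADH1C.

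**Figure D1:**
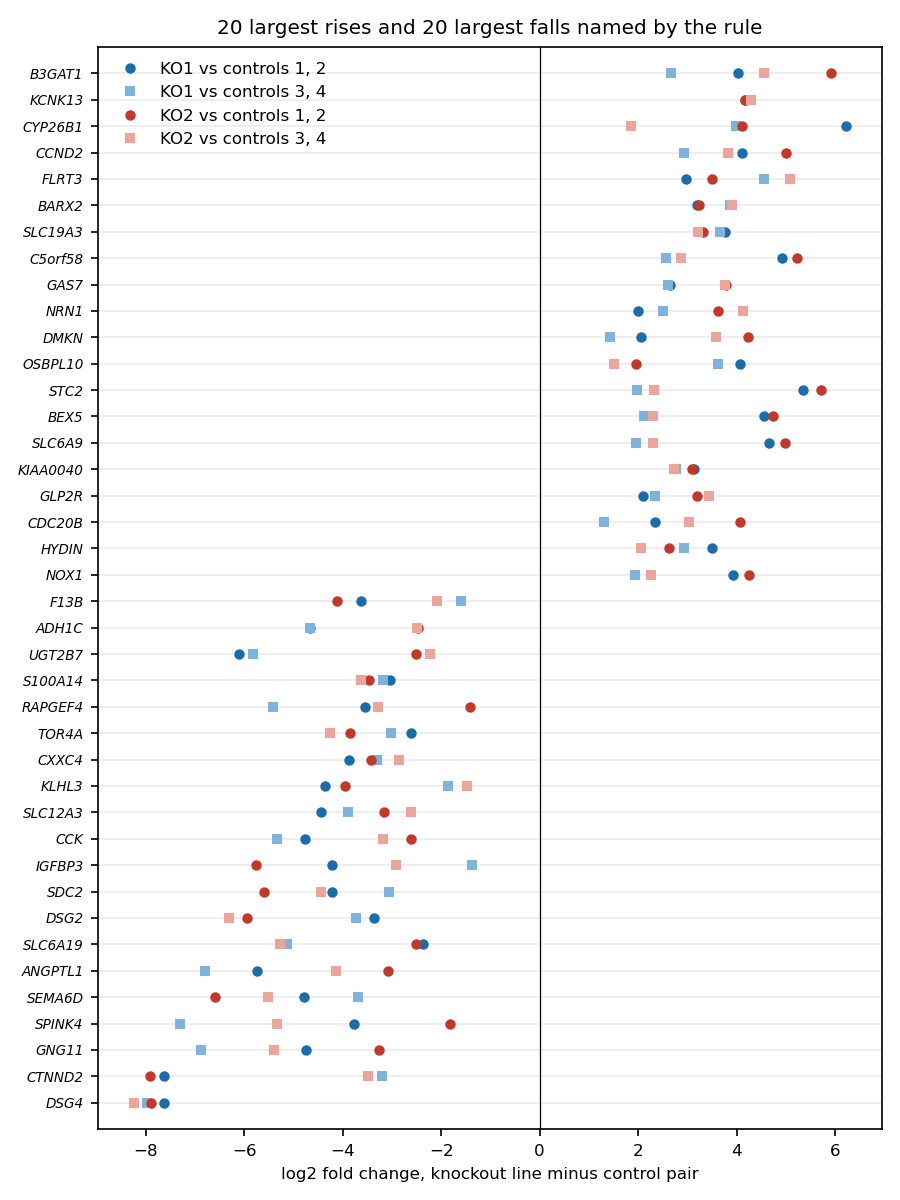
Log2 fold changes (horizontal axis) of the 20 largest rises and 20 largest falls that held, apart from genes known from earlier results, with 1 point for each knockout line against each control pair (edgeR, 6-group fit). Every point lies on its gene's side of 0, as the rule for holding requires. The 4 points of KCNK13 lie together between 4.17 and 4.29, and those of CTNND2 fall into 1 group per control pair.

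The cadherins of the desmosome, the junction that ties the keratin filaments of neighbouring epithelial cells together, are encoded side by side on chromosome 18. There, 5 consecutive tested genes held as falls: DSC3, DSC2, DSG4, DSG2 and TTR, the last encoding the carrier transthyretin. Of 14 desmosomal genes, listed after values were seen, 10 passed the filter on low counts: the 4 cadherins and JUP fell and held, and DSP, PKP2, PKP3, PKP4 and PERP were not called. The linker desmoplakin, DSP, was at 360, 322, 382 and 445 CPM in control and at 566, 569, 454 and 505 CPM in KO (0.47, SE 0.15, adjusted p = 0.0889). DSG2, the widely expressed desmoglein, was at 97.9, 103, 116 and 142 CPM in controls 1 to 4, at 10 and 9.39 in KO1 and at 1.16 and 2.07 in KO2. The lowest control was thus far above the highest knockout, and the fold change was -4.34 on the log2 scale (SE 0.61, adjusted p = 0.00281), from -3.37 to -6.3 across the 4 comparisons. DSG4, best known from hair follicles, was at 4.03, 4.41, 5.91 and 4.84 CPM in control. It had 0, 2, 1 and 1 reads in the knockouts, all at the floor, against 1150 in the controls (adjusted p = 4.25e-05), a control to KO ratio of 280 (95% interval 109 to 1030, for counting error only). DSC3 had 3 reads in the knockouts, but its control pairs also differed, with 0.735 and 0.613 CPM in the first and 42.9 and 39.5 CPM in the second.

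JUP, plakoglobin, links desmosomal cadherins to the filaments and is a close relative of beta-catenin. It was chosen for description after its values were seen. JUP was at 105, 108, 207 and 259 CPM in controls 1 to 4 and at 36.3, 39.8, 47.2 and 57.6 CPM in the knockouts. Its fall of 1.91 on the log2 scale (SE 0.34, adjusted p = 0.00852) was -1.03 at the least, for KO2 against controls 1 and 2. In CTNND2, another armadillo-repeat catenin, controls 1 and 2 had 8.42 and 7.56 CPM and controls 3 and 4 had 0.405 and 0.337 CPM. Its knockout libraries had 1 to 3 reads each, and it fell (adjusted p = 0.00749) with a control to KO ratio of 125 (95% interval 63.4 to 291) that rests mostly on controls 1 and 2.

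The promoters of DSC3 and DSG2 are printed because both genes belong to the run of 5 consecutive tested genes that fell, with DSC2 and DSG4 between them. Each sequence is the 250 bases before the RefSeq transcription start (GRCh38.p14), 5′ to 3′ on the gene's strand, with CG dinucleotides in capitals. The DSC3 window is chr18:31042743-31042992 on the minus strand and the DSG2 window chr18:31497927-31498176 on the plus strand.
DSC3: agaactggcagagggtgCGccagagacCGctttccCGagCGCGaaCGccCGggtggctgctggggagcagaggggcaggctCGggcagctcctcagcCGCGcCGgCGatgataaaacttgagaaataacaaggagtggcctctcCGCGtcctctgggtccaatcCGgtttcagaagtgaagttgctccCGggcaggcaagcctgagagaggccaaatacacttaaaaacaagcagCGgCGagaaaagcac
DSG2: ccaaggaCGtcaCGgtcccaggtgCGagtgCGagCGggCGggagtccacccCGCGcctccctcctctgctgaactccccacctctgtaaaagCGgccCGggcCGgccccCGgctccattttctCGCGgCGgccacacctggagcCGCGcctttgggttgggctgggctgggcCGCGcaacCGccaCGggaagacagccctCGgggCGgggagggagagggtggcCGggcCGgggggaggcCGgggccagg
The DSC3 window held 18 CG dinucleotides and the DSG2 window 26, against a median of 20 over the 12303 of 19200 tested genes that matched a RefSeq entry, taking the first window listed for each symbol.

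Other surface proteins through which cells touch each other or the matrix moved both ways. Of 43 tested adhesion proteins of the immunoglobulin superfamily 2 rose and 5 fell, and 1 and 4 held, 11.6% against 2.76% of all genes, while the median of the list was 0.18. JAM3, a junctional adhesion molecule, was at 3.62, 3.15, 5.22 and 5.51 CPM in control and at 25.6, 19, 14.7 and 17.6 CPM in KO, a rise of 2.13 on the log2 scale (SE 0.24, adjusted p = 0.000852). NECTIN2 fell from 228 ± 18.3 to 155 ± 3.72 CPM (SD, n = 4 each; -0.56, adjusted p = 0.00457). Its neighbour on chromosome 19, the laminin receptor BCAM, fell from 53.5 ± 8.07 to 26 ± 6.96 CPM (-1.04, adjusted p = 0.0108). All 4 knockout libraries lay above the controls for JAM3 and below them for NECTIN2 and BCAM.

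Syndecan-2, encoded by SDC2, is a heparan sulfate proteoglycan of the cell surface that binds growth factors. SDC2 was at 65.1, 69, 26.8 and 33 CPM in controls 1 to 4, at 3.48 and 3.7 CPM in KO1 and at 1.17 and 1.56 CPM in KO2 (log2 -4.29, SE 0.64, adjusted p = 0.00387). Every control was above every knockout library, with the KO2 libraries lowest. FLRT3, a transmembrane protein that binds FGF receptors and guides cell migration, was at 0.735, 0.526, 0.253 and 0.16 CPM in control and 5.27, 4.54, 8.06 and 6.19 CPM in KO. It rose by 3.84 (SE 0.61, adjusted p = 0.00476), from 2.97 in KO1 against controls 1 and 2 to 5.09 in KO2 against controls 3 and 4.

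Tetraspanins organise other membrane proteins into patches. Of 22 tested, 1 rose and 6 fell (31.8%, against 6.28% of all genes), and 3 held (13.6%, against 2.76%). TSPAN8 fell from 74.3 ± 6.4 to 24.5 ± 4.14 CPM (-1.6, adjusted p = 0.00146), TSPAN3 fell from 180 ± 25 to 107 ± 12 CPM (-0.75, adjusted p = 0.00898), and CD9 rose from 8.78 ± 2.3 to 24.3 ± 8.98 CPM (1.47, adjusted p = 0.0141). The median of the list was -0.49, against 0.01 over all genes. Among 61 semaphorins, ephrins, slits, netrins and their receptors, which steer axons and migrating cells, 2 rose and 5 fell (11.5% called), and 3 falls held (4.92%). SEMA6D was at 4.61, 4.79, 2.04 and 2.38 CPM in control and at 0.192, 0.14, 0.0184 and 0.068 CPM in KO (-5.03, SE 0.58, adjusted p = 0.00102). NRP2, a coreceptor for semaphorins and VEGF, fell from 6.45 ± 1.04 to 1.53 ± 0.476 CPM (-2.07, adjusted p = 0.0154). Of 27 intermediate filament genes, LMNA and NEFH held as falls (7.41%). LMNA, lamin A/C, fell from 372 ± 6.88 to 276 ± 7.94 CPM (-0.43, adjusted p = 0.0141), the smallest change described here and one with little spread.

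**Figure D2:**
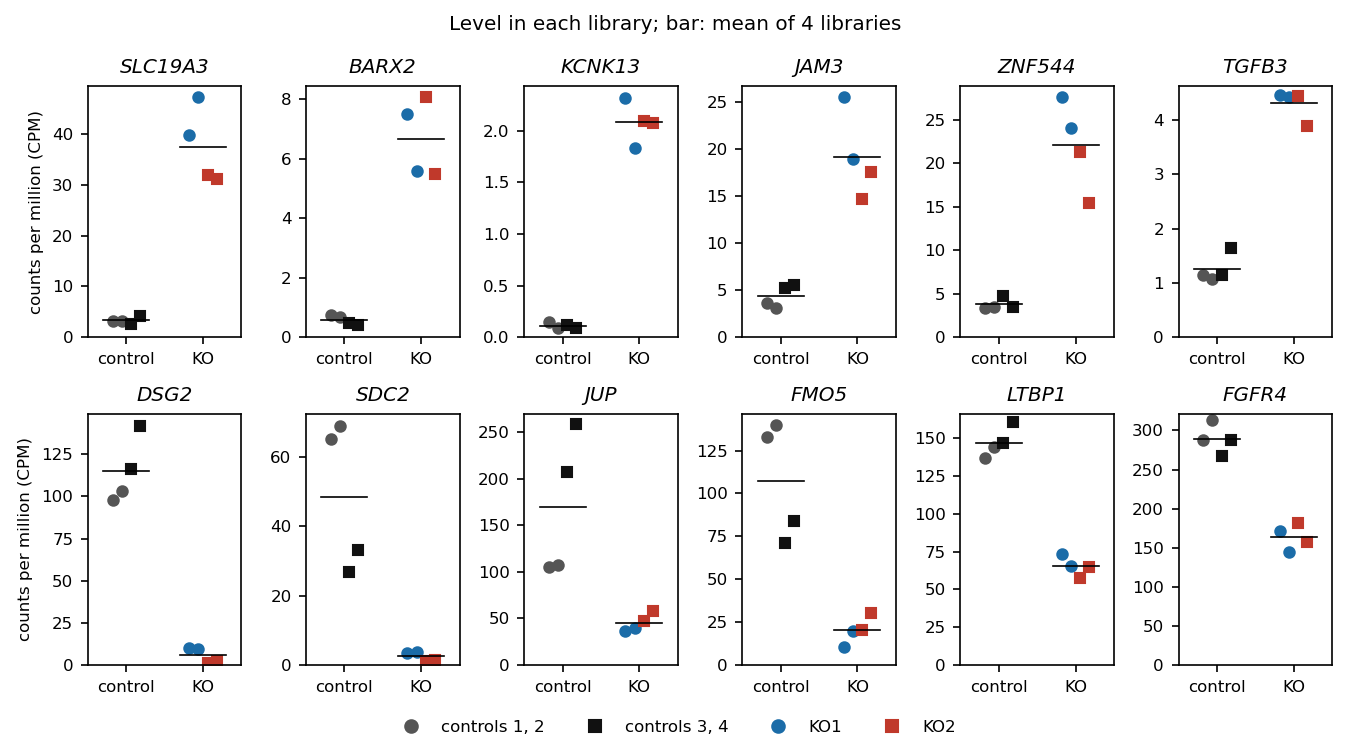
Level in CPM (vertical axis, starting at 0) of 6 genes that rose and 6 that fell, with 1 point per library and a bar at the mean of each group of 4. Controls 1 and 2 are apart from controls 3 and 4 for SDC2, JUP and FMO5 and close to them for SLC19A3, LTBP1 and FGFR4. In all 12 panels the knockouts do not overlap the controls, as for every gene that held.

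Several growth factor receptors were lower in KO. Of 63 tested receptor tyrosine kinases, ligands and binding proteins, 8 fell and none rose by edgeR, and 4 of the falls held (6.35%, against 2.76% of all genes), while the median of the list was -0.05. At an unadjusted p under 0.05 there were 8 higher and 14 lower, and DESeq2 called 5 higher and 10 lower. FGFR4, the hepatocyte receptor for FGF19 that restrains bile acid synthesis, was at 288, 313, 267 and 288 CPM in control and at 172, 145, 181 and 157 CPM in KO. The control and knockout libraries were each tight, and the fold change was -0.82 (SE 0.11, adjusted p = 0.00227), from -0.72 to -0.92 in the 4 comparisons. ERBB2, the HER2 receptor, fell from 125 ± 7.34 to 71.1 ± 9.19 CPM (-0.81, SE 0.12, adjusted p = 0.00435). The hepatocyte growth factor receptor MET, described after its values were seen, fell from 362 ± 25.1 to 200 ± 53.2 CPM (-0.86, adjusted p = 0.0152). IGFBP3, which binds insulin-like growth factors outside the cell, differed between the control pairs, with 188 and 201 CPM in the first and 22.5 and 32.1 CPM in the second. The knockouts lay below all of these at 8.99, 12.1, 2.5 and 4.65 CPM, so the fall was -4.21 and -5.75 against the first pair of controls and -1.38 and -2.92 against the second.

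A list of TGF-beta superfamily ligands, receptors and antagonists was matched by gene symbol, so not every gene on it belongs to the superfamily. Of the 43 tested, 6 held, 14% against 2.76% of all genes, with 2 rises and 4 falls. LTBP1 tethers latent TGF-beta to the matrix. It was at 137, 144, 147 and 161 CPM in control and at 73.5, 65.6, 57.6 and 65 CPM in KO, a fall of 1.17 (SE 0.1, adjusted p = 0.000227). Follistatin, encoded by FST, neutralises activins, and fell from 511 ± 48.2 to 152 ± 54.3 CPM (-1.75, adjusted p = 0.00838). TGFB3, a ligand, was at 1.15, 1.08, 1.15 and 1.65 CPM in control and 4.46, 4.43, 4.44 and 3.9 CPM in KO, a rise of 1.78 (SE 0.19, adjusted p = 0.000713). The activin receptor ACVR1B rose from 40.3 ± 2.44 to 70.9 ± 14.9 CPM (0.82, adjusted p = 0.0133). The falls of FSTL4 and BMP1 also held. The median of the list was -0.12, from 0.12 for KO1 against controls 1 and 2 to -0.27 for KO2 against controls 3 and 4. A direction of signalling was not tested. FST and ACVR1B were chosen after their values were seen.

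Among secreted signals and their receptors, CCK, which encodes the peptide cholecystokinin, was at 37.1, 32.3, 42.5 and 59.6 CPM in control, 1.45 and 1.05 CPM in KO1 and 5.1 and 6.23 CPM in KO2 (-3.63, SE 0.7, adjusted p = 0.0128). GNG11, a G protein gamma subunit, lies beside TFPI2 on chromosome 7, and both fell. GNG11 was at 1.94, 2.31, 10 and 8.58 CPM in control and 0.0479, 0.117, 0.239 and 0.204 CPM in KO (-5.21, SE 0.87, adjusted p = 0.00631). Of 116 G protein-coupled receptors 3 rose and 4 fell, and the 6.03% called was near the 6.28% of all genes. P2RY2, a receptor for extracellular ATP and UTP, rose from 2.12 ± 0.934 to 7.53 ± 0.459 CPM (1.83, adjusted p = 0.00398). Among 85 cytokine and TNF family genes, of which 7.06% were called, CCL28 rose from 9.57 ± 0.249 to 16.2 ± 1.19 CPM (0.76, adjusted p = 0.00596). The death receptor TNFRSF21 fell from 177 ± 28.3 to 99.4 ± 16.8 CPM (-0.83, adjusted p = 0.0076). CXXC4, an inhibitor of Wnt signalling that binds Dishevelled, fell from 2.27 ± 0.727 to 0.214 ± 0.0822 CPM (-3.37, SE 0.62, adjusted p = 0.0095).

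A transporter and a channel had the smallest adjusted p among the rises named by the rule. SLC19A3, a transporter of thiamine, the vitamin from which the cofactor of pyruvate dehydrogenase is made, had 3.17, 3.2, 2.65 and 4.17 CPM in controls 1 to 4, 39.8 and 47.3 CPM in KO1 and 31.9 and 31.2 CPM in KO2. Neither the control pairs nor the lines stood apart by much beside the difference between the groups, which was 3.51 on the log2 scale (SE 0.22, adjusted p = 4.25e-05) and ranged from 3.21 to 3.77. KCNK13, a potassium channel of the tandem pore family, was at 0.143, 0.0876, 0.118 and 0.0886 CPM in control, just above the floor, and at 2.32, 1.83, 2.09 and 2.07 CPM in KO (4.22, SE 0.3, adjusted p = 4.25e-05). The neutral amino acid transporter SLC1A4, chosen after its values were seen, rose from 51.6 ± 7.87 to 119 ± 12 CPM (1.21, adjusted p = 0.00462).

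Over all 310 solute carriers tested the called genes went mainly the other way, with 7 rises and 25 falls, of which 5 and 15 held. These were 10.3% called and 6.45% held, against 6.28% and 2.76% of all genes, while the median of the list was -0.03. SLC6A19 takes up neutral amino acids in kidney and gut. Controls 1 and 2 had 2.85 and 2.63 CPM, controls 3 and 4 had 19 and 18 CPM, and the knockouts lay below both pairs with 0.639, 0.398, 0.404 and 0.544 CPM (-4.41, SE 0.67, adjusted p = 0.00421). The thiazide-sensitive sodium chloride cotransporter SLC12A3 fell from 2.05 ± 0.484 to 0.183 ± 0.121 CPM (-3.43, adjusted p = 0.00323). KLHL3, an adaptor of a ubiquitin ligase that regulates that cotransporter in the kidney, was at 15.1 and 14.1 CPM in the first control pair, 2.36 and 2.85 CPM in the second and 0.479, 0.983, 0.807 and 1.06 CPM in KO (-3.37, adjusted p = 0.0128). Its fall was -4.35 and -3.96 against the first pair and -1.87 and -1.47 against the second, and the call was lost with controls 3 and 4 only. Ion channel subunits were called 11 times as higher and 10 times as lower among 152 (13.8%), and 2 and 5 held (4.61%).

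The promoter windows of KCNK13 and SLC19A3 are printed because they had the smallest adjusted p of the rises named by the rule. They are chr14:90061744-90061993 on the plus strand and chr2:227718029-227718278 on the minus strand, given as above.
KCNK13: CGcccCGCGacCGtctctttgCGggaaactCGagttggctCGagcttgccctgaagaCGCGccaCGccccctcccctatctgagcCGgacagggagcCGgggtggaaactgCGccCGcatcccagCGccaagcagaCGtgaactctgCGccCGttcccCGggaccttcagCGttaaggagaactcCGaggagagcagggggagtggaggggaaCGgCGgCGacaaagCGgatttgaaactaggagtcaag
SLC19A3: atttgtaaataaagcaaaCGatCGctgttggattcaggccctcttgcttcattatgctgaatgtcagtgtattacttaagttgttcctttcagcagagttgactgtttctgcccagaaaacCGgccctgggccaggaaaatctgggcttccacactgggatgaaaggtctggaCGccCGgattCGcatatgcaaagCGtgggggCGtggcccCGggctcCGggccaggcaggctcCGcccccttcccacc
The KCNK13 window held 25 CG dinucleotides and the letters ACGTG, the core of the hypoxia response element, on 1 of the strands. The SLC19A3 window held 11 CG and none of those letters. Over all windows and both strands, ACGTG was found in 22.8%, in 26.9% of those of the rises that held and in 21% of those of the falls. CACGTG, the E-box of the carbohydrate response kind, which contains ACGTG, was in 8.62%, 12.3% and 7.01%. A match is a description of the letters and not a bound site.

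Enzymes of metabolism close to the hexokinase step were not on a fixed list here, and those named in this paragraph were chosen after their values were seen. Phosphofructokinase isoforms moved in opposite directions. PFKP, the platelet form, was at 40.5, 51.8, 41.6 and 63.4 CPM in control and 149, 142, 71.8 and 123 CPM in KO (1.3, SE 0.24, adjusted p = 0.0106). PFKL, the liver form, was at 205, 218, 200 and 239 CPM in control and 108, 121, 129 and 169 CPM in KO (-0.71, SE 0.13, adjusted p = 0.0116). For both genes the knockout libraries lay wholly outside the range of the controls. OGT, which attaches the sugar GlcNAc made by the hexosamine pathway to proteins, rose from 136 ± 13.6 to 253 ± 39.3 CPM (0.89, adjusted p = 0.00676). All 3 genes held, with the largest adjusted p of the 4 comparisons between 0.028 and 0.0469.

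Enzymes of drug and aldehyde metabolism, a liver function, were called 4 times as higher and 17 times as lower among 151 tested, and 3 and 7 held. These were 13.9% called and 6.62% held, against 6.28% and 2.76% of all genes. FMO5, a monooxygenase, was at 133, 140, 71 and 83.7 CPM in control and at 10.6, 19.9, 20.2 and 30 CPM in KO (-2.4, SE 0.35, adjusted p = 0.00346). GSTA4, a glutathione transferase for lipid peroxidation products, fell from 47.8 ± 4.8 to 23.7 ± 4.15 CPM (-1.01, adjusted p = 0.00344). The coagulation factor subunit F13B, a secreted liver protein, had 32.7 and 32.4 CPM in the first control pair, 8.21 and 7.71 CPM in the second and 1.85, 3.49, 2.2 and 1.55 CPM in KO (-3.16, SE 0.57, adjusted p = 0.00911). Beside these falls, 4 of the 12 hepatocyte markers were called lower, and FGB and TTR held. The median of the 12 was -1.37 on the log2 scale, at -1.68 and -2.98 for KO1 and KO2 against controls 1 and 2 and -0.22 and -0.36 against controls 3 and 4. The marker sums of the groups overlapped, with APOB at 10400 and 21600 CPM in KO1 and 20.2 and 47.8 CPM in KO2. Without APOB the sums were 22200, 21500, 6320 and 5720 CPM in controls 1 to 4, 4390 and 5890 CPM in KO1 and 3400 and 3330 CPM in KO2. The part of these markers in the falls was not tested.

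In nucleotide metabolism 4 of 104 genes rose and 1 fell (4.81%, under the 6.28% of all genes), and the rises of DPYD and TYMP were among those that held. TYMP, thymidine phosphorylase, acts next to DPYD in pyrimidine breakdown and rose from 12.4 ± 2.54 to 32 ± 9.24 CPM (1.36, adjusted p = 0.00487). Among glycan-building enzymes 1 of 114 rose and 7 fell (7.02%), and ST3GAL5, which makes the ganglioside GM3, fell from 45.1 ± 5.06 to 20.9 ± 4.09 CPM (-1.11, adjusted p = 0.003). Of 83 collagens, laminins and other matrix proteins, 3 rose and 2 fell (6.02%), and DESeq2 called 4 higher and 10 lower. COL18A1, whose product releases endostatin, was at 204, 244, 215 and 243 CPM in control and at 112, 104, 110 and 118 CPM in KO (-1.03, SE 0.11, adjusted p = 0.000638). The protease inhibitor CST3, cystatin C, fell from 74.8 ± 7.9 to 38.7 ± 6.41 CPM (-0.95, adjusted p = 0.0134), and among 94 proteases and inhibitors 2 rose and 10 fell (12.8%).

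**Figure D3:**
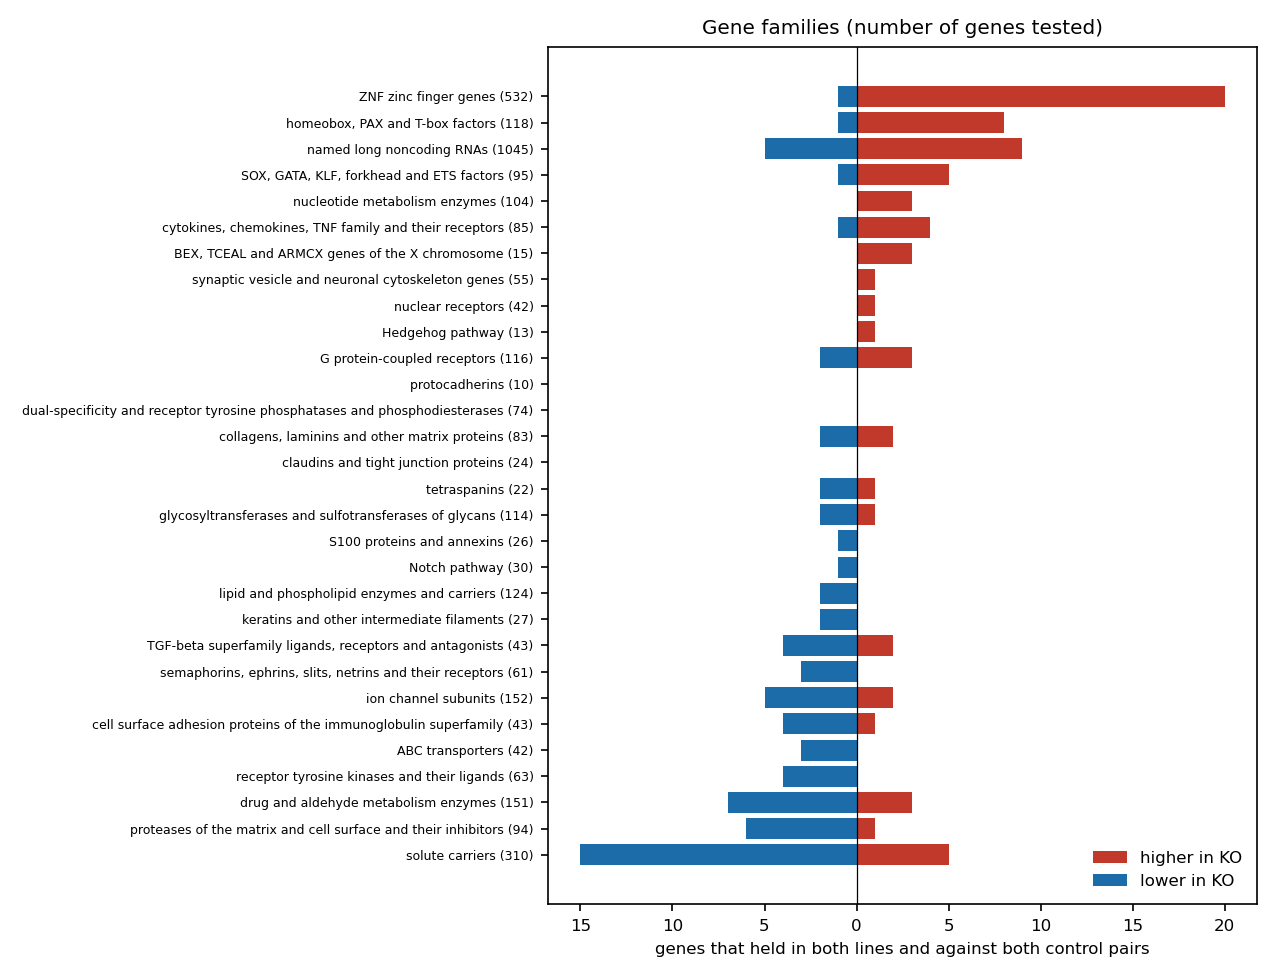
Number of genes of each family shown that held as higher (bars to the right) or lower (bars to the left) in KO, with the number of genes tested in brackets. ZNF zinc finger genes (20 and 1) and homeobox, PAX and T-box factors (8 and 1) lie mostly to the right, and solute carriers (5 and 15) mostly to the left.

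Transcription factor genes that were called were mostly higher in KO. Of 118 homeobox, PAX and T-box genes 14 rose and 1 fell, and 8 and 1 held. These were 12.7% called and 7.63% held, against 6.28% and 2.76% of all genes. ISL1-DT, among the 8, is a noncoding transcript beside a homeobox gene. BARX2, a homeobox factor of epithelial and muscle development, was at 0.753, 0.686, 0.49 and 0.408 CPM in control and at 7.51, 5.6, 8.06 and 5.49 CPM in KO (3.51, SE 0.27, adjusted p = 6.82e-05). HOXB7 rose from 4.21 ± 0.144 to 11.1 ± 2.18 CPM (1.39, adjusted p = 0.00313), and HOXB9, of the same cluster on chromosome 17, from 1.53 ± 0.8 to 8.89 ± 3.15 CPM (2.53, adjusted p = 0.0116). TBX15, a T-box factor, rose from 3.69 ± 1.82 to 14.3 ± 2.18 CPM (1.95, adjusted p = 0.00806). HOXB9 and TBX15 were chosen after their values were seen. Of 95 SOX, GATA, KLF, forkhead and ETS factors 9 rose and 1 fell, and 5 and 1 held (10.5% called, 6.32% held), the fall being that of SOX2.

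ZNF zinc finger genes, many of which encode repressors of transposable elements, are a large family: of 532 tested, 32 rose and 3 fell, and 20 and 1 held. The 6.58% called was near the 6.28% of all genes, and 3.95% held, against 2.76%. Reads may be shared among near-identical copies of this family, so the level of a single member is uncertain. ZNF544 was at 3.37, 3.52, 4.75 and 3.44 CPM in control and at 27.7, 24.1, 21.3 and 15.5 CPM in KO (2.55, SE 0.26, adjusted p = 0.000607). ZNF883, on chromosome 9, rose from 6.16 ± 0.268 to 11.8 ± 0.751 CPM (0.94, adjusted p = 0.00175). On chromosome 19, 6 consecutive tested genes held as rises, of which 5 have a symbol: ZNF83, ZNF611, ZNF600, ZNF28 and ZNF468. Their log2 fold changes were 0.67, 0.8, 1.08, 0.9 and 0.9, with adjusted p from 0.00203 to 0.0193. ZNF600 was at 7.53, 7.55, 8.44 and 7.62 CPM in control and 15.4, 14.6, 19.2 and 16.7 CPM in KO, and ZNF83 at 19.3, 20.5, 17.7 and 16.4 CPM and 29.5, 29.4, 29.8 and 28.7 CPM. Each of the 5 had 4 knockout libraries above 4 controls, and ZNF611 alone of them lost its call without control 1 or without control 2.

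Promoter windows of 2 of these neighbours are printed for comparison, chr19:52735045-52735294 for ZNF611 and chr19:52857620-52857869 for ZNF468, both on the minus strand.
ZNF611: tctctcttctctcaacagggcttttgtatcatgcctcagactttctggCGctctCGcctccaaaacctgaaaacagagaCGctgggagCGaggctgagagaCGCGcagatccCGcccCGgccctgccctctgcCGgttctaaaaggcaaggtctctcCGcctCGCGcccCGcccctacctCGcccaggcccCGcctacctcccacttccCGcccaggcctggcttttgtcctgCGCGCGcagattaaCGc
ZNF468: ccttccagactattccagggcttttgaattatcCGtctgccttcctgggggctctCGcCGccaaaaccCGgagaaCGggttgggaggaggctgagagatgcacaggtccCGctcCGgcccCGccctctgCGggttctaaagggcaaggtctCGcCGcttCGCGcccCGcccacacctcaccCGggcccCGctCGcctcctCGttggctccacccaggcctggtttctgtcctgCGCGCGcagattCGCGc
They held 20 and 23 CG dinucleotides, at or near the median of 20 over all windows. CG counts were lower in both directions among the 48 rises and 54 falls that held with at least an 8-fold change of all KO against all control libraries. This is a wider set than that with an 8-fold change in each of the 4 comparisons. For the falls the median was 8 over 37 windows, and 37.8% had under 5 CG, against 10.2% of all windows. For the rises it was 12.5 over 38 windows, and 13.2% had under 5. TATAAA was in 24.3% of those windows for the falls, 13.2% for the rises and 6.05% of all, and GGGCGG, the GC box, in 35.1%, 47.4% and 64.9%. Over all 298 falls that held the median was 19 CG, and over the 232 rises 18.

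Several further genes do not belong to a family described so far. GAS7, linked to actin filaments, rose from 4.29 ± 0.488 to 42.7 ± 18.8 CPM (3.31, adjusted p = 0.00577), with 23.8 and 29.4 CPM in KO1 and 61.6 and 55.9 CPM in KO2. RHOBTB1, whose product carries BTB domains, was at 39.7, 41.8, 35.3 and 31.9 CPM in control, at 11.7 and 11.6 CPM in KO1 and at 2.7 and 3.45 CPM in KO2 (-2.34, SE 0.49, adjusted p = 0.0178). S100A14, a calcium-binding protein of epithelia, fell from 23.2 ± 6.96 to 2.33 ± 0.844 CPM (-3.31, adjusted p = 0.0121). Among 1045 named long noncoding RNAs 28 rose and 15 fell, and 9 and 5 held (1.34%, against 2.76% of all genes). LINC00667 fell from 8.19 ± 0.695 to 3.7 ± 0.553 CPM (-1.15, adjusted p = 0.00297) and SKAP1-AS2 rose from 0.855 ± 0.194 to 2.75 ± 0.408 CPM (1.68, adjusted p = 0.00281). KLHDC9, a kelch protein gene chosen after its values were seen, had 406 reads in the controls (1.94, 2.18, 0.794 and 1.81 CPM) and 0 in all 4 knockout libraries, at least 132-fold lower against 3 counts over the knockout group (adjusted p = 0.00363).

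Of the calls that missed at least 1 of the 4 comparisons, the naming rule took the 4 of smallest p in each direction, and 7 are given here, the other being the rise of MARCHF3. UNC5B, a netrin receptor, was at 1.11, 1.83, 0.996 and 1.21 CPM in control, 8.88 and 14.1 CPM in KO1 and 3.71 and 5.17 CPM in KO2 (2.63, adjusted p = 0.0102). MOV10L1, an RNA helicase of the piRNA pathway, rose from 0.186 ± 0.0989 to 3.26 ± 1.99 CPM (4.1, adjusted p = 0.0109), and the sodium channel SCN2A from 8.26 ± 0.654 to 13.7 ± 2.08 CPM (0.73, adjusted p = 0.0125). The falls of ERAP2, which trims peptides for HLA class I, of the transcobalamin receptor CD320, of TMEM179B and of SEPSECS, which makes selenocysteine on its tRNA, had log2 fold changes of -0.85, -0.85, -0.67 and -1.08. In each of these 7 the groups did not overlap and the sign was the same in all 4 comparisons, and the adjusted p of at least 1 comparison lay between 0.0513 and 0.0717.

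The genes that held were spread unevenly over the chromosomes, which were taken from GENCODE release 29. Falls that held made up 5.81% of the 689 genes tested on chromosome 4, 4.35% of 644 on chromosome 8, 4.09% of 318 on chromosome 13, 3.1% of 290 on chromosome 18 and 2.83% of 706 on chromosome 10, against 1.55% of all genes. Rises that held made up 3.62% of 636 genes on chromosome X and 2.49% of 1848 on chromosome 1, against 1.21%. On chromosome 8, 2 genes were called higher and neither held. The median over all genes of a chromosome moved in 1 line only in some cases. For chromosome 8 it was -0.5 and -0.55 in KO1 against the control pairs and -0.09 and -0.1 in KO2. For chromosome X it was -0.02 and -0.06 in KO1 and 0.36 and 0.37 in KO2. For chromosome 13 it followed the controls instead, at 0.13 and -0.06 against controls 1 and 2 and at -0.35 and -0.52 against controls 3 and 4.

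**Figure D4:**
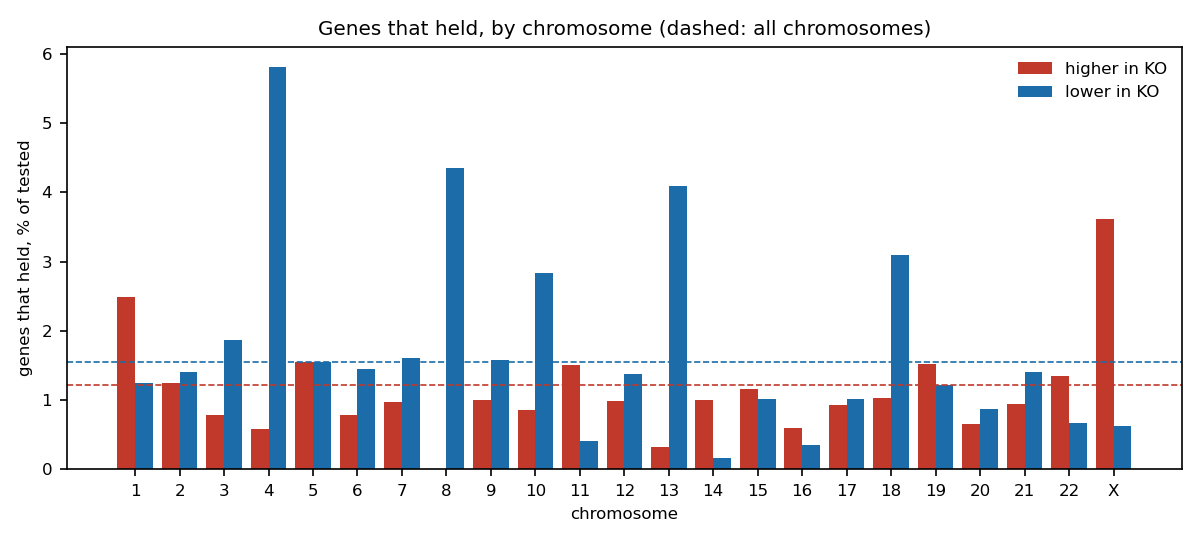
Share of tested genes on each chromosome that held as higher or lower in KO, in percent, with dashed lines at the shares over all genes (1.21% and 1.55%). Falls stand out on chromosomes 4 and 8 (5.81% and 4.35%) and rises on chromosome X (3.62%).

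Along a chromosome, neighbouring genes shifted together by a small amount. A running median over 51 expressed protein-coding genes (at least 5 CPM in a group), a measure chosen after the data were seen, was at or beyond 0.25 with 1 sign in all 4 comparisons in 4 stretches. On chromosome 4 the stretch from HAUS3 to LIMCH1 held 91 such genes with medians of -0.52, -0.46, -0.45 and -0.44, and 84 had a negative fold change. On chromosome 10 the stretch from STN1 to FAM53B held 61 genes with medians from -0.38 to -0.53, and 59 were negative. On chromosome 1 the stretch from SERINC2 to LSM10 held 46 genes with medians from 0.3 to 0.62, and 43 were positive. The fourth, from ZNF707 to MROH1, of 14 genes near the end of chromosome 8 (ranks 339 to 352 of 377), had medians from -0.3 to -0.55. A centred window is not defined for the outermost genes of a chromosome. The stretch on chromosome 4 starts, and those on chromosomes 8 and 10 end, at this limit. HAUS3, MROH1 and FAM53B are thus limits of the window and not edges of a shift. Within the stretch on chromosome 1, the neighbours KPNA6, an importin, and TXLNA were described after their values were seen: KPNA6 rose from 103 ± 10.9 to 156 ± 8.91 CPM (0.6, adjusted p = 0.0048) and TXLNA from 149 ± 7.78 to 209 ± 6.4 CPM (0.49, adjusted p = 0.00565).

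These stretches held 1.37% of the genes tested for falls and 11.4% of the falls that held, 34 of 298, and 0.359% of the genes and 4.74% of the rises, 11 of 232. The stretches were defined from the same fold changes, so larger shares inside them are built into the definition and are no separate result. Changes inside them were smaller than elsewhere, with median log2 fold changes of -0.72 inside and -1.14 outside for falls, and 0.67 and 1.78 for rises. TXLNA and KPNA6 lie in the stretch on chromosome 1. Among genes that held with at least a 4-fold change, all 98 rises and 82 of the falls lay outside the stretches, and 1 fall lay inside. With 0.359% and 1.37% of the tested genes inside, few would lie there in any case, so these counts are no result about large changes. Genes at the chromosome ends, where the window is not defined, also count as outside. DNA copy number was not measured in these files, and its part in these results was not tested.

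**Figure D5:**
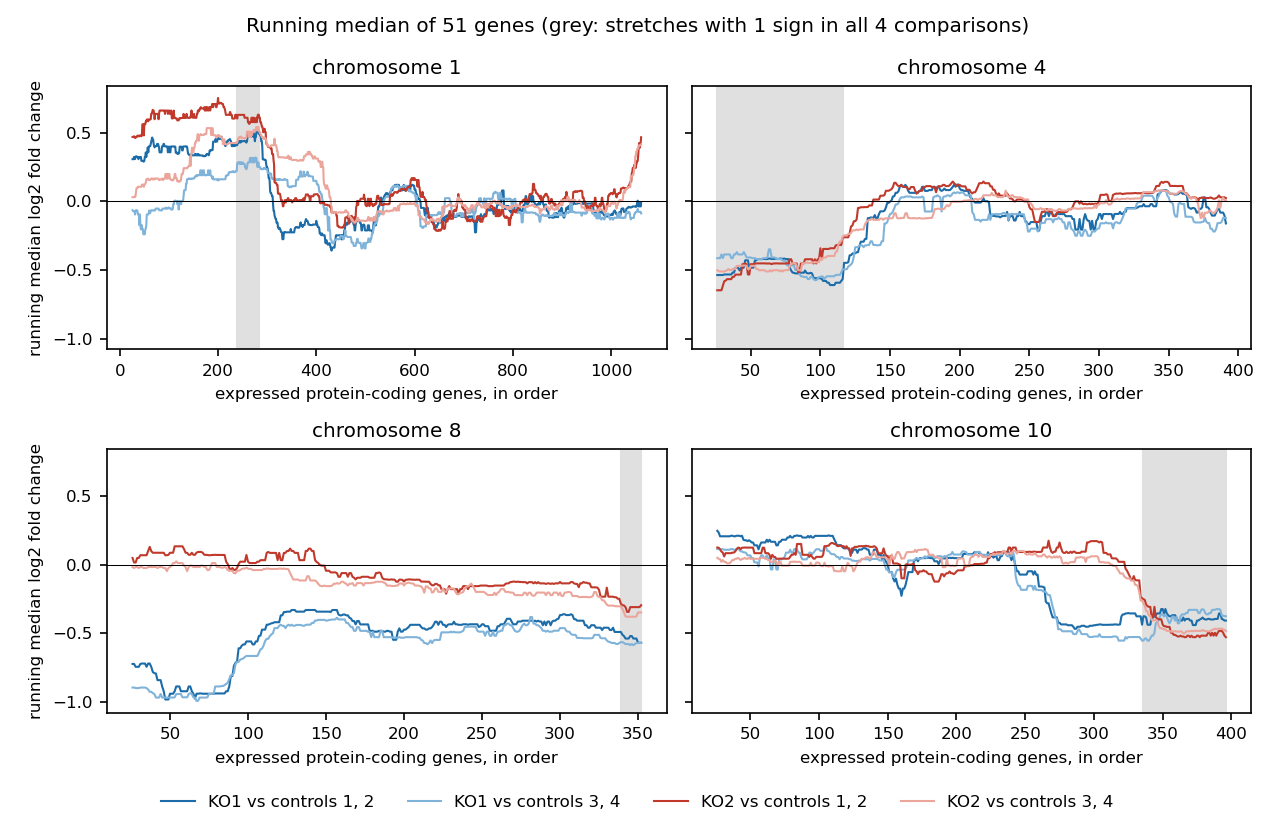
Running median log2 fold change (vertical axis) over 51 expressed protein-coding genes in chromosome order (horizontal axis, rank of the gene) for each knockout line against each control pair, on chromosomes 1, 4, 8 and 10. Grey marks the 4 stretches where all 4 curves are at or beyond 0.25 with 1 sign, and on chromosome 8 the KO1 curves run below the KO2 curves throughout.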

How the data were processed

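RNA-seq counts of 8 libraries were compared, 4 control and 4 KO, grouped by sample title. The authors deposited raw counts of reads per gene, made with STAR 2.6.0b on GRCh37 per the submitters' processing notes, from a stranded mRNA kit per the labels' protocols. Column 4 was used, whose total was 19.98 to 20.82 times that of the other strand, without the 4 lines of unassigned reads. Each file listed 57820 genes, of which 40058 matched a symbol, and genes without one held 5.619% of counts. Trimming is not given in the sources used here.

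Counts were fitted in R 4.3.3 with edgeR 4.0.16 (filterByExpr, TMM, quasi-likelihood tests, Benjamini-Hochberg adjustment over all genes, called at an adjusted p under 0.05). A 3-group fit of the series' 12 libraries gave KO against control (19200 genes), and a 6-group fit of pairs gave the 4 comparisons of a line with a control pair (20559 genes). Both were run on simulated counts with planted changes. Control pairs and lines did not differ in those counts, unlike in the real data, so that run does not test how the fits handle such differences. Levels are CPM with TMM factors. As alternatives, DESeq2 1.42.0, RLE scaling, unstranded counts, no low-count filter, fewer libraries or groups, leaving out each library and a replicate block were tried.

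The comparison, the 31 family and 6 marker lists and the naming rule were chosen with earlier results of these data known. The rule named HKDC1 and the 20 largest rises and falls that held. The rises and falls needed a symbol, at least 2 CPM in the higher group and groups without overlap. The rule added up to 2 such genes per family and 4 calls each way that failed a comparison. Results on some items are not reported here. Promoter sequences are RefSeq's on GRCh38.p14. No coordinates of other genes are given, since the builds differ.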

Additional observations from a re-analysis of the deposited data

Results flagged for a closer look

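The lines differed from each other (KO2 minus KO1, log2, edgeR 6-group fit, adjusted p under 0.05) for HKDC1 at -1.09 (adjusted p = 0.0173) and for 14 of the 71 called genes given with values, 19.7%, close to the 19.9% of all genes. Falls were deeper in KO2 for DSG2 (-2.57, adjusted p = 0.000162), RHOBTB1 (-1.92, adjusted p = 7.44e-05), SEMA6D (-1.82, adjusted p = 0.0491), IGFBP3 (-1.54, adjusted p = 0.0323), SDC2 (-1.38, adjusted p = 0.00226) and MET (-0.65, adjusted p = 0.00725). Falls were deeper in KO1 for CCK (2.16, adjusted p = 0.000422), FST (0.9, adjusted p = 0.00127), ST3GAL5 (0.49, adjusted p = 0.0395) and JUP (0.46, adjusted p = 0.041). The rise of GAS7 was larger in KO2 (1.15, adjusted p = 0.000416), and those of CD9 (-0.8, adjusted p = 0.0417), TYMP (-0.72, adjusted p = 0.00846) and HOXB7 (-0.49, adjusted p = 0.0424) were larger in KO1.

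Dixon's test of a library's gap to the nearest gives about 1 in 20 by chance where 4 libraries vary alike. The libraries here fell into pairs, so that rate is no yardstick for them. A single library stood apart from the other 3 of its group in 7 of 144 groups of 4. These were TGFB3 in control 4 at 1.65 CPM and in KO 2_2 at 3.9 CPM, ZNF544 in control 3 at 4.75 CPM, ZNF883 in control 1 at 6.56 CPM, ZNF600 in control 3 at 8.44 CPM, KPNA6 in KO 1_2 at 170 CPM and SCN2A in control 4 at 9.23 CPM. In each of them the groups still did not overlap.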

How the results depend on the processing

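The 1206 calls were 2289 with DESeq2 and 5185 as the mean of lines against the mean of control pairs in the 6-group fit. They were 337 with controls 3 and 4 only, 736 with line KO1 only, 289 with line KO2 only, 72 with only libraries whose title and genotype field agree, and 509 to 959 leaving out 1 library. The 530 genes that held were 818 with only the 8 libraries, 226 at an adjusted p under 0.01, 132 in 3-group fits with 1 control pair or 1 line each, and 202 to 327 leaving out 1 library. Of the 110 named genes called, 83 to 98 passed leaving out 1 library, 53 with controls 3 and 4 only, 51 with line KO2 only and 27 with agreeing labels. No gene was called with opposite signs in the main and an alternative setting. The 71 called genes given with values kept their calls more often than the named genes on leaving out 1 library, which the choice of genes partly built in. Of the 71, 15 passed in all 20 alternatives: DSG4, JAM3, TSPAN8, LTBP1, TGFB3, KCNK13, SLC19A3, SLC12A3, FMO5, GSTA4, BARX2, ZNF544, ZNF468, COL18A1 and KLHDC9. Stretches of neighbours numbered 4 with windows of 31 genes or a threshold of 0.2 and 2 (chromosomes 4 and 10) with wider windows, alternatives chosen after seeing the data. The median of chromosome X was -0.07 with line KO1 only, against 0.17. With fewer libraries or groups a lone library is assumed to vary like the rest; the cause of the other changes was not tested. Among the families given in the report, the direction of most calls turned only for matrix proteins (3 rises and 3 falls with RLE scaling, 4 and 10 with DESeq2). Depth limits genes near the floor. With the last number of the title as a replicate block, added after seeing the data, 1686 genes were called (819 of the 1206 among them) and 88 of the 110 named genes; controls 3 and 4 share their numbers with no other library, so this fit rests on controls 1 and 2. The numbers were not taken to pair libraries: across 19200 genes the differences between numbers 1 and 2 correlated at 0.04 between controls and KO1, 0.19 between controls and KO2 and 0.24 between the lines. Of the 71 genes, CD9 and CCK lost their call under the block.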
